A study of Mus musculus with 2 samples.

Results

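The azurophil granule genes described here are 6 of the 27998 genes in the deposited gene table: Mpo, Elane, Prtn3, Ctsg, Prss57 and Ms4a3, taken by their listed symbols. They were read in 2 droplet libraries (10x Genomics) of single-cell RNA, in which each captured molecule carries a unique molecular identifier (UMI) and is counted once. The mice in both groups were Fsp1-Cre:R26R-EYFP animals, where Cre under the promoter of Fsp1 (S100a4) turns on a permanent YFP label in a cell and all its descendants, and the cells were sorted from digested hindlimb muscle as YFP-positive and CD11b-negative. The day 28 library came from mice taken 28 days after hindlimb ischemia surgery, and the day 0 library from mice without surgery. The number of animals, their age and their sex are not given in the sources used here. With 1 library per group no test between the groups is possible, so every interval below is an exact 95% interval that covers counting error only.

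Azurophil granules are the first granules that a developing neutrophil makes, at the promyelocyte stage, and their proteins are stored for killing microbes after the cell has matured. Mpo encodes myeloperoxidase, which makes hypochlorous acid. Elane, Prtn3, Ctsg and Prss57 encode neutrophil elastase, proteinase 3, cathepsin G and the serine protease NSP4. Ms4a3 is not an enzyme gene: it encodes a membrane-spanning protein found in granulocyte and monocyte progenitors. Transcription of these genes is known to stop before the neutrophil matures, so their RNA marks marrow-type progenitors rather than circulating neutrophils.

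On mm10, Mpo (ENSMUSG00000009350) lies at chr11:87793581-87804413 on the plus strand. Elane (ENSMUSG00000020125) lies at chr10:79886247-79888215, plus strand, and Prtn3 (ENSMUSG00000057729) at chr10:79874476-79883174, plus strand, so that 3072 bases separate the end of Prtn3 from the start of Elane. Prss57 (ENSMUSG00000020323) lies in the same neighbourhood at chr10:79781474-79790961, minus strand, 83514 bases before Prtn3. Ctsg (ENSMUSG00000040314) is at chr14:56099881-56102574 and Ms4a3 (ENSMUSG00000024681) at chr19:11629496-11640851, both on the minus strand. All 6 are protein-coding in GENCODE M21. Whether the counting used strand is not given in the sources used here, and 3 members overlap another gene: Plppr3 over Prtn3 had 50.2 CPM (UMIs of the gene per 1000000 UMIs of the cells) at day 28 and 59.1 CPM at day 0 in neutrophil progenitor-like cells, while Gm11505 over Mpo and Fstl3 over Prss57 had at most 3.36 CPM.

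RefSeq promoter sequences on GRCm38.p6, which share the mm10 coordinates, were matched for 5 of the 6 genes. The 250 bases before the start site of 4 of them are shown because these genes peaked together in the same cells and Elane and Prtn3 are neighbours. Capitals mark GGAAGT, a core bound by ETS factors such as PU.1 (Spi1), AACGG, a core bound by Myb, and TATAA, each searched on both strands. The windows are chr10:79886062-79886311 (plus strand) for Elane, chr10:79879417-79879666 (plus) for Prtn3, chr11:87793534-87793783 (plus) for Mpo and chr14:56102575-56102824 (minus) for Ctsg. Each window lies just before the RefSeq start site, which is not always the GENCODE gene start given above. The Prtn3 window lies inside the gene span given above, and the Mpo and Elane windows run past the start of theirs.
Elane: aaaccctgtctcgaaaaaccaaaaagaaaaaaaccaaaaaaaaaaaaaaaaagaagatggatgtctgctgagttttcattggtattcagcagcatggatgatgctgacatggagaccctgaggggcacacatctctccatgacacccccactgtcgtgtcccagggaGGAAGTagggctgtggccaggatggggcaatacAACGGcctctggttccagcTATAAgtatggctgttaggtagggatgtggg
Prtn3: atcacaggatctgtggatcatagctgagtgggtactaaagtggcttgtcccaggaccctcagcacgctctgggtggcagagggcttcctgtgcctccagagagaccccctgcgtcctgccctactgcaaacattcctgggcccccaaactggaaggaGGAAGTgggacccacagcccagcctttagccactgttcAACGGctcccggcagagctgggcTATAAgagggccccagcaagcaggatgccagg
Mpo: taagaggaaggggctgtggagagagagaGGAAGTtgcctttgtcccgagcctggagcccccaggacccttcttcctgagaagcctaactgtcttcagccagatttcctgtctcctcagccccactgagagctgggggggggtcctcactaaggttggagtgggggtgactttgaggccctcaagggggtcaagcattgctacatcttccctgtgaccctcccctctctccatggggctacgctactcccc
Ctsg: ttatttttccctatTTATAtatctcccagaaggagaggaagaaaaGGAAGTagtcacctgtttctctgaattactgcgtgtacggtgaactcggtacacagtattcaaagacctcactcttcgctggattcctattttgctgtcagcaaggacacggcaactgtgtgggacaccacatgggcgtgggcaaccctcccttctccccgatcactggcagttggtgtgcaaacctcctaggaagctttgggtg
The Elane and Prtn3 promoters carried the 3 words in the same order, counted from the start site: GGAAGT at -83 and -93, AACGG at -50 and -55 and TATAA at -31 and -32. GGAAGT also stood at -222 in Mpo and at -205 in Ctsg, where the TATAA letters at -236 are on the other strand. All 5 matched promoters, that of Ms4a3 included, held GGAAGT. Words of other factors were also searched. The C/EBP word TTGCNNAA was found only in Ms4a3 and its shorter form TTGCA in Prtn3, Ctsg and Ms4a3. The RUNX word TGTGGT was found only in Ctsg, and the GATA word GATAA in none of the 5. Among 32544 promoters of 300 bases (250 before to 50 after the start), 23.7% held GGAAGT, 17.4% held AACGG and 24.8% held TATAA on either strand. The shares were 10.8% for TTGCNNAA, 35.6% for TTGCA, 16.7% for TGTGGT and 25.3% for GATAA. These words were picked after the promoters had been read, and a match is a description of letters, not a binding site.

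The day 28 library held 2653 barcodes and 38785525 UMIs (median 12265 per barcode) and the day 0 library 2668 barcodes and 19574562 UMIs (median 4844), and 13 barcodes occurred in both. After filtering, 2580 cells remained at day 28 and 2610 at day 0. Leiden clustering without the 6 genes gave 22 clusters, which were named "X-like" from marker genes that do not include the members. Over all cells S100a4 had 232 CPM (day 28) and 229 CPM (day 0). The labelled tissue is muscle. Of 5 muscle genes, Myod1 had 0 UMIs in each library, Pax7 had 1 UMI in each and Myh4 had 1 at day 28 and 0 at day 0. Ckm had 207 UMIs at day 28 (5.56 CPM) and 163 at day 0 (8.60 CPM). Acta1 had 19 UMIs (0.510 CPM) and 169 UMIs (8.92 CPM) on those days. The fibroblast-like cells numbered 4 at day 28 and 12 at day 0, and the other named groups were blood lineages. The fibroblast-like cells and 2 further small groups, the 5 and 15 granule-maturing neutrophil-like cells and an unnamed cluster of 6 and 6 cells, are left out of the orders below.

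The 6 genes were highest in neutrophil progenitor-like cells in both libraries. This was a cluster of 289 cells at day 28 and 62 cells at day 0, led by S100a8, S100a9, Wfdc21, Cd63 and Gstm1, and the median depth in it was nearly the same, 22427 UMIs per cell at day 28 and 22561 at day 0. Their UMIs together made up 25764 CPM (25641 to 25887) of the RNA in these cells at day 28 and 34724 CPM (34415 to 35036) at day 0. These cells held 55.5% of all UMIs of the 6 genes at day 28 and 52.9% at day 0, and monocyte progenitor-like cells held a further 36.0% and 40.3% on those days.

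Elane, the elastase gene, was the most abundant member, at 9606 CPM (9531 to 9682) in day 28 and 14163 CPM (13966 to 14362) in day 0 neutrophil progenitor-like cells. Per cell, the lowest, median and highest Elane levels were 752, 9169 and 21962 CPM at day 28 and 4163, 13818 and 28828 CPM at day 0. The ranges overlapped over most of their length, and the lowest cells were at day 28. Prtn3 stood at 6477 CPM at day 28 (6416 to 6539) and 5629.7 CPM at day 0 (5506 to 5756), with cell medians of 6263 and 5235 CPM on those days. Prtn3 was thus the second most abundant member at day 28 and the third at day 0, behind Mpo.

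Mpo, the peroxidase gene, reached 4153 CPM at day 28 (4104 to 4203) and 7559.9 CPM at day 0 (7416 to 7706). Its level in single cells ran between 667 and 11335 CPM around a median of 3406 at day 28, and between 1885 and 18195 CPM around a median of 6822 at day 0. Ctsg had 3581 CPM at day 28 (3535 to 3627) and 5006 CPM at day 0 (4889 to 5125). Its cell median was 2944 CPM at day 28 and 4791 CPM at day 0, so that Mpo, Elane and Ctsg were each lower at day 28 in the sum and in the median.

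The membrane protein gene Ms4a3 was lower than Mpo, Elane, Prtn3 and Ctsg on this scale, with 1642 CPM at day 28 (1611 to 1673) and 1969.8 CPM at day 0 (1897 to 2045). Prss57 was the least abundant member, with 304 CPM at day 28 (291 to 318) and 396 CPM at day 0 (364 to 431). In a 3' tag assay a UMI stands for 1 molecule whatever the transcript length, so these levels between genes were not divided by length, though capture can still differ between genes.

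**Figure D1:**
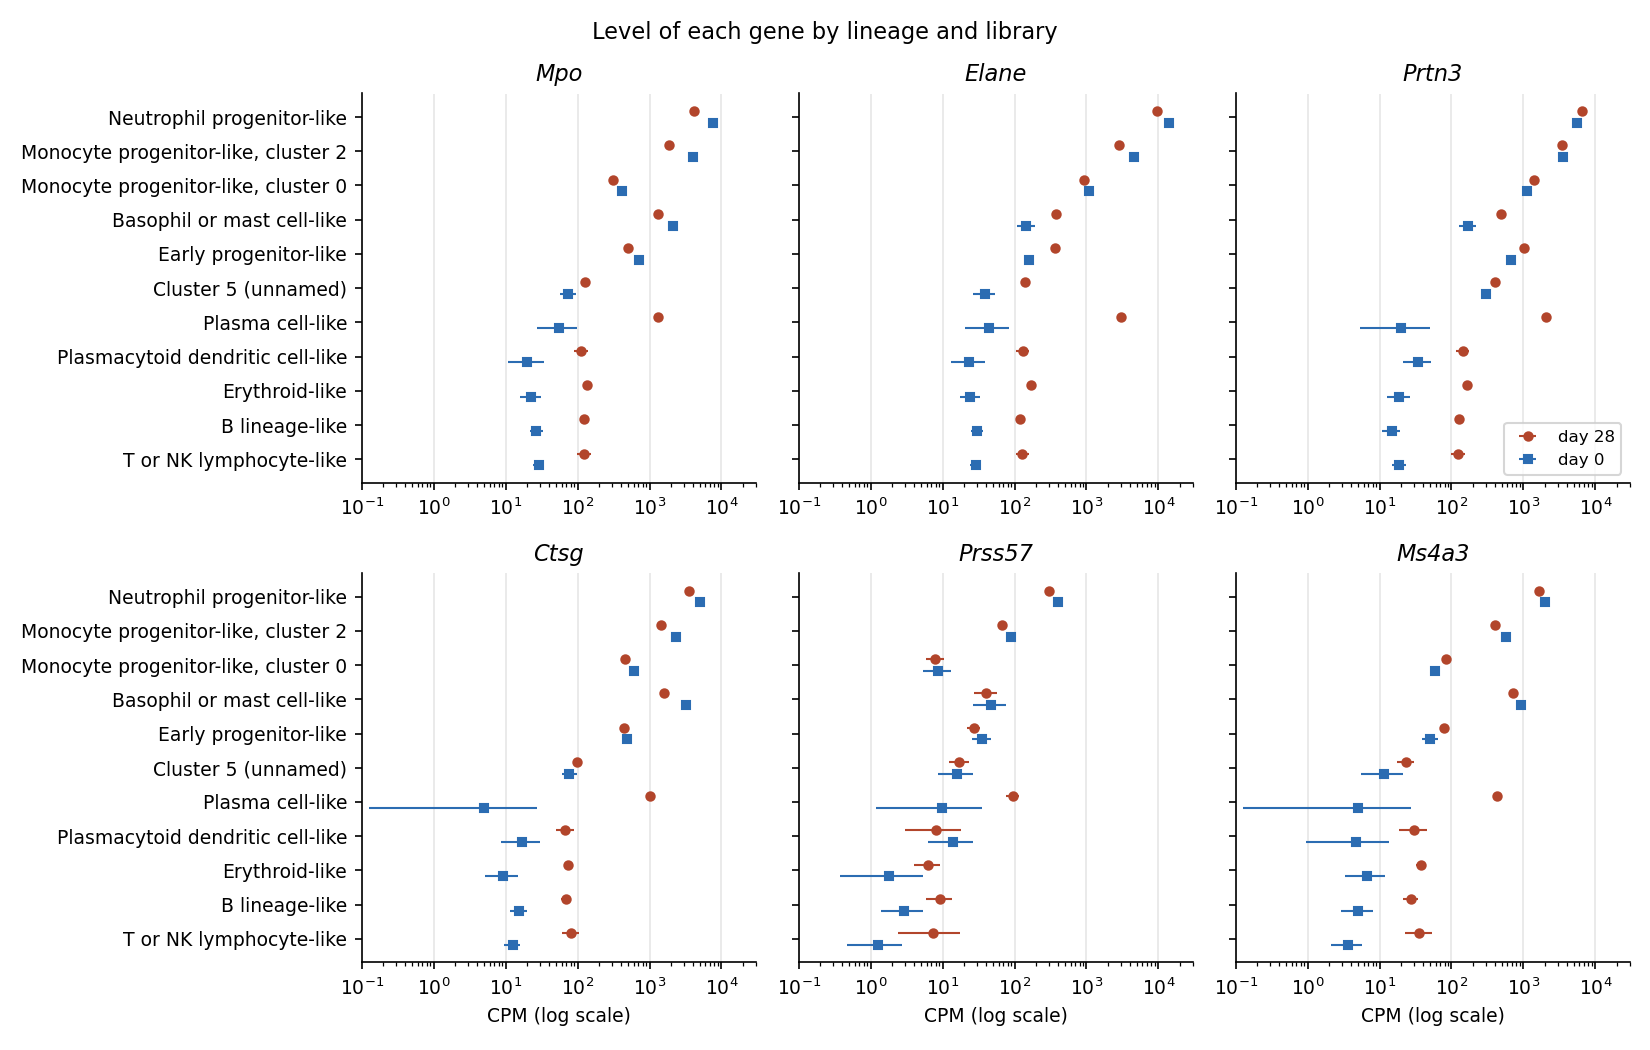
Level of each gene in CPM (log scale) in 11 groups of cells, with day 28 as circles above day 0 as squares and bars for the 95% Poisson interval. Neutrophil progenitor-like cells are at the right end for every gene, and the lymphoid and erythroid-like groups lie close together within each library, several-fold further right at day 28 than at day 0.

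With the 2 libraries set against each other within neutrophil progenitor-like cells, Mpo at day 28 was 0.549 times its day 0 level (0.537 to 0.562), Elane 0.678 times (0.667 to 0.689) and Ctsg 0.715 times (0.696 to 0.735). Prss57 stood at 0.768 times (0.699 to 0.846) and Ms4a3 at 0.833 times (0.799 to 0.869). Prtn3 was the member above 1, at 1.15 times its day 0 level (1.12 to 1.18). At a 2-fold limit 0 of the 6 members were called higher and 0 lower, beside 0.64% of 6404 genes higher and 2.56% lower, and the members' median log2 ratio of -0.43 stood beside -0.10 for all genes tested. None of these ratios has a replicate check, and the narrow intervals reflect the number of UMIs, between 550 for Prss57 at day 0 and 62910 for Elane at day 28.

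The proportion between members shifted accordingly. In neutrophil progenitor-like cells there were 1.56 Prtn3 UMIs per Mpo UMI (1.54 to 1.58) at day 28 and 0.745 (0.723 to 0.767) at day 0. In monocyte progenitor-like cells the same proportion was 2.13 at day 28 and 1.10 at day 0 (4.54 and 2.74 in cluster 0, 1.86 and 0.886 in cluster 2), and in early progenitor-like cells 2.04 and 0.942 on those days. Over all cells it was 1.76 (1.74 to 1.78) at day 28 and 0.887 (0.870 to 0.905) at day 0. Prtn3 therefore outnumbered Mpo in each of these 3 cell groups at day 28. The lymphoid and erythroid-like cells, treated below as background, showed the same direction, with 1.16 (1.06 to 1.27) at day 28 and 0.642 (0.526 to 0.781) at day 0.

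**Figure D2:**
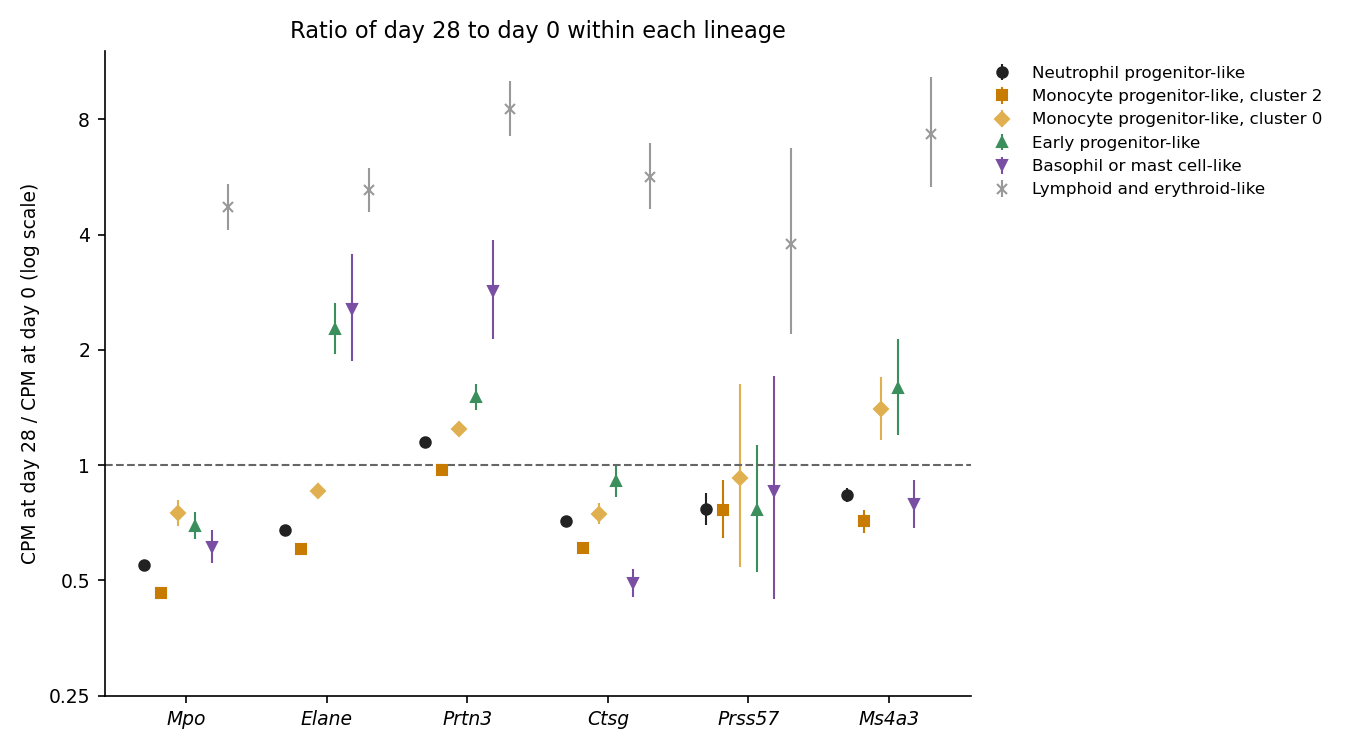
Ratio of CPM at day 28 to CPM at day 0 (log scale) for each gene in 6 groups of cells, with 95% intervals for counting error and a dashed line at 1. Mpo lies below 1 in all 5 progenitor or basophil groups, Prtn3 lies above 1 in all of them but monocyte progenitor-like cluster 2, and the lymphoid and erythroid-like cells lie above 1 for all 6 genes.

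In monocyte progenitor-like cells the 6 genes summed to 7269 CPM at day 28 and 8467 CPM at day 0. These cells comprised cluster 0, led by Lyz2, Ms4a6c and F13a1 (454 and 219 cells on days 28 and 0), and cluster 2, led by F13a1, Ly6c2 and Ms4a6c (432 and 82 cells). Cluster 2 had a mixed profile, with naming scores of 2.31 for monocyte and 1.91 for neutrophil progenitor markers. Its 10 leading genes also held Gstm1 and Cd34. Its monocyte progenitor markers summed to 2115 CPM at day 28 and 3636 CPM at day 0, against 4219 and 6507 CPM in cluster 0. Its neutrophil progenitor markers summed to 616 and 886 CPM, against 574 and 799 CPM in cluster 0. Each of the 6 genes was more than 2-fold higher in neutrophil than in monocyte progenitor-like cells in both libraries, 6 of 6 members beside 3.81% of 6475 genes at day 28 and 4.32% of 6708 genes at day 0. The ratio was largest for Prss57, 6.99 (6.40 to 7.65) at day 28 and 9.19 (7.77 to 10.9) at day 0, and for Ms4a3, 5.93 (5.72 to 6.15) at day 28 with an interval of 6.54 to 7.49 at day 0. It was smallest for Prtn3, 2.47 (2.44 to 2.50) at day 28 and 2.59 (2.51 to 2.67) at day 0. Over cluster 2 alone the 2-fold difference was lost for Prtn3, at 1.88 (1.85 to 1.91) at day 28 and 1.59 (1.54 to 1.64) at day 0, and for Mpo at day 0, at 1.89 (1.84 to 1.95).

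The 2 monocyte progenitor-like clusters differed from each other. Cluster 2 had 2804 CPM of Elane and 1857 CPM of Mpo at day 28, and 4632 and 3999 CPM at day 0. In cluster 0 the Elane level was 937 CPM at day 28 and 1092 CPM at day 0, and the Mpo level 308 and 411 CPM. Cluster 2 was also the deeper one, with a median of 20535 UMIs per cell at day 28 and 22949.5 at day 0, against 12446.5 and 10254 in cluster 0. Prss57 separated them further: 67.5 CPM at day 28 and 88.2 CPM at day 0 in cluster 2, against 7.91 and 8.56 CPM in cluster 0. In cluster 0 Prss57 at day 28 lay within the counting interval of the lymphoid and erythroid-like cells, 7.34 CPM (5.52 to 9.58), while at day 0 its 8.56 CPM (5.30 to 13.1) lay above the 1.95 CPM (1.17 to 3.04) of those cells.

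Since cluster 2 made up more of the class at day 28, the day 28 over day 0 ratios were also taken within each cluster. In cluster 2 the ratio was 0.464 for Mpo (0.452 to 0.477), 0.605 for Elane, 0.607 for Ctsg, 0.713 for Ms4a3, 0.766 for Prss57 and 0.973 for Prtn3 (0.947 to 0.999). In cluster 0 it was 0.749 for Mpo, 0.746 for Ctsg, 0.858 for Elane, 1.24 for Prtn3 (1.19 to 1.30) and 1.40 for Ms4a3 (1.16 to 1.70). Mpo was lowest or near the lowest in each cluster, and Prtn3 was above Mpo and Elane in each.

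Basophil or mast cell-like cells, of which there were 75 at day 28 and 35 at day 0, led by the basophil genes on which they were named, held a different mixture of the 6 genes. Ctsg was their most abundant member, at 1603 CPM at day 28 (1515 to 1695) and 3259 CPM at day 0 (3065 to 3463). Mpo stood at 1319 CPM at day 28 (1239 to 1402) and 2152 CPM at day 0 (1994 to 2319), and Ms4a3 at 725 CPM (667 to 788) and 917 CPM (815 to 1028). Elane, the leading member in neutrophil progenitor-like cells, had 374 CPM at day 28 (332 to 419.9) and 147 CPM at day 0 (108 to 195). There were 4.28 Ctsg UMIs per Elane UMI (3.77 to 4.88) at day 28 and 22.2 (16.6 to 30.5) at day 0 in these cells, against 0.373 and 0.353 in neutrophil progenitor-like cells.

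Set against the lymphoid and erythroid-like cells of the same library, Ctsg in basophil or mast cell-like cells was 21.9 times higher at day 28 and 253 times at day 0, and Ms4a3 21.4 and 199 times. Elane was 2.51 times higher at day 28 and 5.15 times at day 0, and Prtn3 3.23 and 9.68 times. With that background level taken away, Elane kept 225 CPM at day 28 and 118 CPM at day 0, and Prtn3 331 and 151 CPM, so both sums were higher at day 28. Before that step, Elane went down to 212.5 CPM at day 28 and 116 CPM at day 0 among the processing alternatives. The background was not taken away under those alternatives, so the direction for Elane after that step was not checked there. The markers of neutrophil progenitors summed to 320.1 CPM at day 28 and 555 CPM at day 0 in these cells, with 2 of 8 markers at 10 CPM or more on each day, and 0 and 4 markers at 0. Their part in the result was not tested.

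Early progenitor-like cells, 279 at day 28 and 130 at day 0 and led by Pf4, Cd34 and Ifitm1, had Prtn3 at 1019 CPM at day 28 (985 to 1054) and 677 CPM at day 0 (631 to 724). Mpo stood at 499 CPM at day 28 (476 to 524) and 719 CPM at day 0 (672 to 768), and Ctsg at 446 and 491 CPM. Elane was low for a gene that leads elsewhere, with 362 CPM at day 28 (342 to 383) and 159.7 CPM at day 0 (138 to 184). The order of members was thus the reverse of that in neutrophil progenitor-like cells for Elane and Mpo: 1.38 Mpo UMIs per Elane UMI (1.28 to 1.49) at day 28 and 4.50 (3.85 to 5.28) at day 0, against 0.432 and 0.534. The ratio of 2.27 for Elane at day 28 over day 0 in these cells (1.95 to 2.66) stands beside a background that differed more. Less the lymphoid and erythroid level, Elane had 214 CPM at day 28 and 131 CPM at day 0, and Ms4a3 46.1 and 45.6 CPM. This cluster had a mixed profile, with naming scores of 2.61 for early progenitor and 2.16 for megakaryocyte or platelet markers. Those markers summed to 1286 and 764 CPM at day 28 and to 1546 and 1752 CPM at day 0. Its granule-maturing neutrophil markers summed to 540 CPM at day 28 and 51.0 CPM at day 0, and its neutrophil progenitor markers to 169 and 217 CPM. The part of this make-up in the levels and ratios was not tested.

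An unnamed cluster of 244 cells at day 28 and 99 at day 0, led by Ms4a6c, Cd7 and Cst3, showed mainly Prtn3. Prtn3 had 404 CPM at day 28 (379 to 431) and 305 CPM at day 0 (269 to 343) there, 2.72 and 17.5 times the lymphoid and erythroid level. It made up 49.8% of the UMIs of the 6 genes at day 28 and 58.4% at day 0, against 25.1% and 16.2% in neutrophil progenitor-like cells. Elane and Mpo in this cluster were 0.944 and 0.998 times the background at day 28 and 1.36 and 2.72 times at day 0. Prtn3 was not alone above the background: Ctsg was 1.36 times at day 28 and 5.99 times at day 0. Prss57 was 2.32 and 8.18 times on those days, on 40 and 14 UMIs, and Ms4a3 0.692 and 2.47 times. In plasmacytoid dendritic cell-like cells the 5 members other than Prss57 were 0.742 to 1.96 times the background on the 2 days. Prss57 was 1.12 times at day 28 and 7.17 times at day 0, where that value rested on 9 UMIs.

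**Figure D3:**
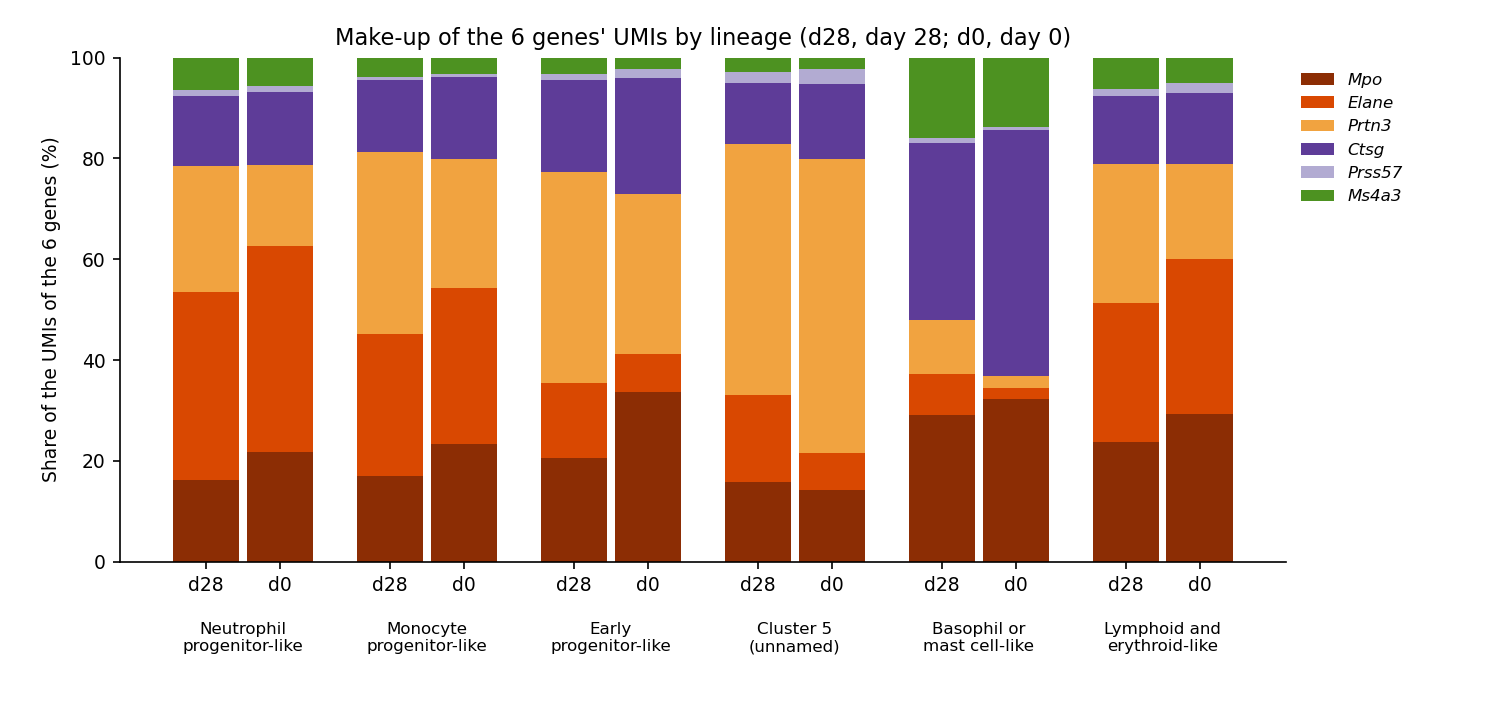
Share of each gene in the summed UMIs of the 6 genes (percent), by group of cells, with day 28 left of day 0 in each pair of bars. Elane takes 37.3% at day 28 and 40.8% at day 0 in neutrophil progenitor-like cells, Prtn3 takes 49.8% and 58.4% in unnamed cluster 5, and Ctsg takes 35.3% and 48.7% in basophil or mast cell-like cells.

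The order of cell groups by level differed between members. For each of the 6, neutrophil progenitor-like cells came first in both libraries, and their interval did not overlap the next one. Monocyte progenitor-like cluster 2 was next for Mpo and Prtn3 in both libraries and for Elane and Prss57 at day 0, plasma cell-like cells were next for Elane and Prss57 at day 28, and basophil or mast cell-like cells were next for Ctsg and Ms4a3 in both libraries. The place of the plasma cell-like cells rested on 14 of their 84 cells at day 28, described below: without these 14, Elane had 269 CPM and Prss57 27.2 CPM there, below the 2804 and 67.5 CPM of cluster 2. In the day 0 order for Prss57, cluster 2, basophil or mast cell-like, early progenitor-like and unnamed cluster 5 each overlapped the next, so their order is not resolved beyond counting error. At the low end, plasmacytoid dendritic, erythroid, B lineage and T or NK-like cells each overlapped their neighbour in the order for Mpo, Ctsg and Ms4a3 in both libraries. For Elane at day 28 the interval of erythroid-like cells, at 171 CPM (159 to 184), also overlapped those of plasmacytoid dendritic (107 to 161) and T or NK-like cells (103 to 159), and lay above that of B lineage-like cells (107 to 134).

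RNA of the 6 genes was also found in the lymphoid and erythroid-like cells, read here as background. Early progenitor markers gave the second naming score in B lineage-like cluster 12 (95 cells at day 28 and 63 at day 0). The same held for erythroid-like cluster 15 (70 and 26 cells). Whether any of this RNA was made by the cells themselves was not tested. In T or NK, B lineage and erythroid-like cells together, the 6 genes summed to 540.0 CPM (523 to 557) in 574 cells at day 28 and to 92.4 CPM (86.5 to 98.7) in 1786 cells at day 0, a ratio of 5.84 (5.43 to 6.29). Over all cells the corresponding sums were 8160.0 CPM at day 28 and 4809.9 CPM at day 0, a ratio of 1.70 (1.68 to 1.71). The ratio in the background was 8.54 for Prtn3 (7.26 to 10.1), 7.35 for Ms4a3, 5.67 for Ctsg, 5.23 for Elane, 4.72 for Mpo and 3.78 for Prss57 (2.20 to 6.74). The background thus differed more between the libraries than the level over all cells did. With no cells left out for their doublet score, the background summed to 1183 CPM at day 28 and 252 CPM at day 0.

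Between lineages of 1 library this background differed less than between the libraries. The 6 genes summed to 499 CPM in T or NK, 475 CPM in B lineage and 589 CPM in erythroid-like cells at day 28. At day 0 the sums were 93.9, 94.7 and 83.4 CPM. At day 28, 12 of 203 erythroid-like cells held 3 or more UMIs of the neutrophil progenitor markers. These cells held 33.4% of that class's UMIs of the 6 genes. The share was 12.2% in T or NK (1 of 100 cells) and 8.69% in B lineage-like cells (10 of 271). Mpo had 123 CPM in T or NK, 122 CPM in B lineage and 133 CPM in erythroid-like cells at day 28, and 29.0, 26.8 and 22.5 CPM at day 0. Prtn3 had 124, 128 and 166 CPM at day 28 and 18.8, 14.7 and 18.9 CPM at day 0 in the same order. The background mixture was not that of neutrophil progenitor-like cells: there were 0.860 Mpo UMIs per Elane UMI (0.788 to 0.939) at day 28 and 0.953 (0.803 to 1.13) at day 0. In neutrophil progenitor-like cells the values were 0.432 and 0.534 on those days, and over all cells 0.512 and 0.662. The level in neutrophil progenitor-like cells was 32.4 times the background for Mpo and 64.5 times for Elane at day 28, and 279 and 498 times at day 0.

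The share of cells with a UMI depended on depth, so the cells were also thinned to 3200 UMIs each. No day 28 cell and 225 day 0 cells were too shallow for this. Unthinned, Elane was found in 66.7% of background cells at day 28 (median depth 9708.5 UMIs) and 14.0% at day 0 (4094 UMIs), and in all neutrophil progenitor-like cells on both days. Thinned, it was found in 31.2% of background cells at day 28 and 8.65% at day 0. At day 28 the thinned share with Elane was 44.1% (38.2 to 50.1) in early progenitor-like and 37.3% (26.4 to 49.3) in basophil or mast cell-like cells, and at day 0 it was 12.4% (7.26 to 19.4) and 17.1% (6.56 to 33.7). The interval held the background share in 3 of these 4 cases, all but the early progenitor-like cells at day 28. For Ctsg in basophil or mast cell-like cells the thinned share was 92.0% at day 28 and 94.3% at day 0, against 19.5% and 4.52% in the background.

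Most neutrophil progenitor-like cells held all 6 genes at once. All 6 were detected in 277 of 289 cells at day 28 (95.8%, 92.9 to 97.8) and in 59 of 62 at day 0 (95.2%, 86.5 to 99.0). After thinning these became 170 of 289 (58.8%, 52.9 to 64.6) at day 28 and 36 of 62 (58.1%, 44.8 to 70.5) at day 0. Prss57 set this share, being found in 59.5% of thinned cells at day 28 and 58.1% at day 0, while each other member was in at least 99.0%. The difference between the days was smaller than the counting error of either share.

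Monocyte progenitor-like cells held on average 3.67 of the 6 genes per thinned cell at day 28 and 2.85 at day 0. The direction differed between their clusters: cluster 2 held 4.51 at day 28 and 4.77 at day 0, and cluster 0 held 2.87 and 2.13. Basophil or mast cell-like cells held 3.65 and 3.06 on those days, early progenitor-like cells 2.39 and 1.55, and background cells 1.30 and 0.291. Of thinned monocyte progenitor-like cells with Elane, 95.7% also held Prtn3 at day 28 and 94.5% at day 0, against 79.6% and 47.5% of those without Elane. In cluster 0 alone these shares were 90.6% and 91.1%, against 74.0% and 44.8% without Elane, while every thinned cell of cluster 2 held Prtn3. In background cells those with Elane held Prtn3 about as often as the rest, 35.2% (28.2 to 42.7) against 31.1% at day 28 and 7.35% (3.58 to 13.1) against 5.85% at day 0.

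**Figure D4:**
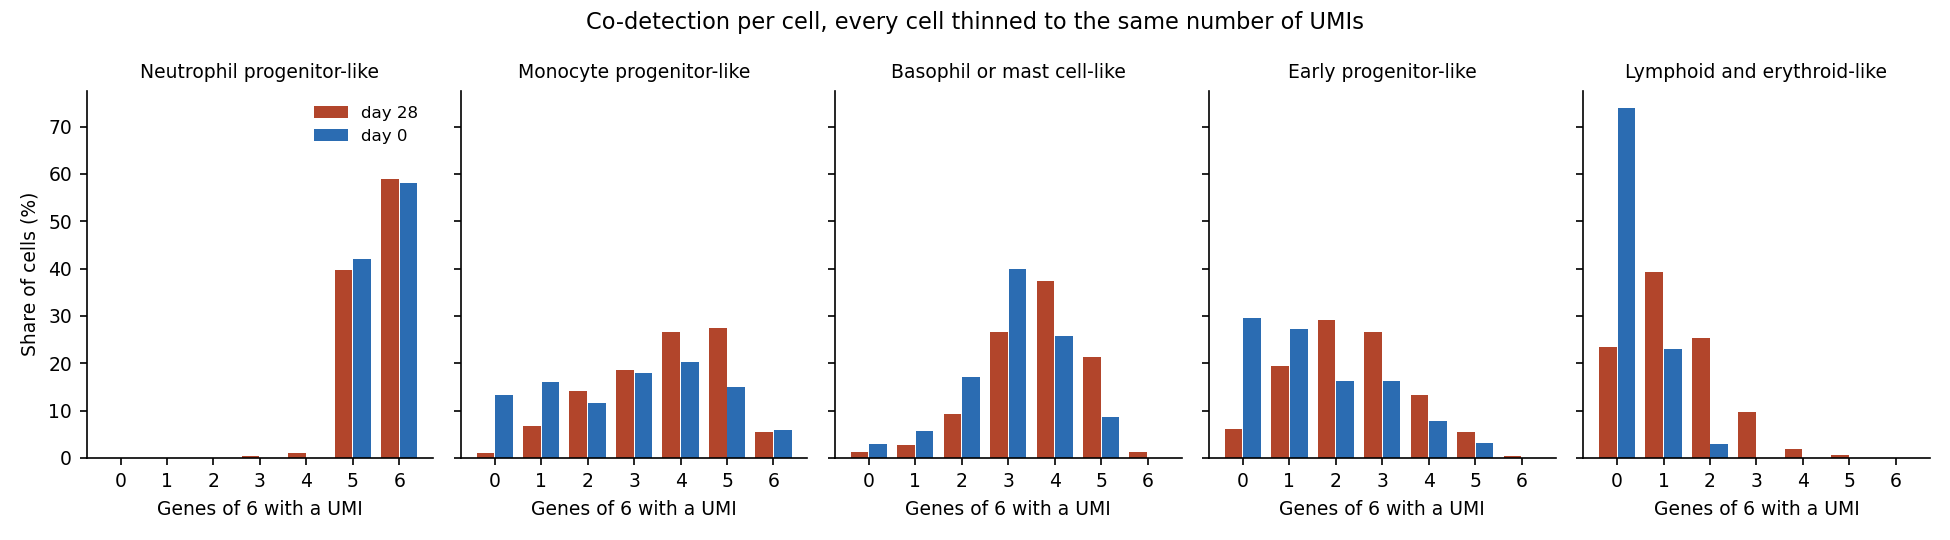
Share of cells (percent) holding 0 to 6 of the genes after each cell was thinned to 3200 UMIs, for 5 groups of cells, with day 28 left of day 0. Neutrophil progenitor-like cells sit at 5 and 6 genes in both libraries, and background cells at day 0 mostly at 0 genes (73.9%) against 23.3% at day 28.

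Levels within a group varied together from cell to cell to different degrees, given here as Spearman correlations across thinned cells with no test, since cells of 1 library share a source. In 289 neutrophil progenitor-like cells at day 28 and 62 at day 0, Elane with Ctsg gave 0.50 and 0.52, and Elane with Srgn, which encodes the proteoglycan that holds proteases in the granule, 0.47 and 0.55. Mpo with Elane gave 0.26 at day 28 and 0.64 at day 0. In monocyte progenitor-like cells Mpo with Prtn3 gave 0.68 and 0.77 on those days, and less within each cluster, 0.32 and 0.53 in cluster 0 and 0.42 and 0.50 in cluster 2. In 75 and 35 basophil or mast cell-like cells, Ctsg with the basophil protease gene Mcpt8 gave 0.46 and 0.44, and Elane with Mcpt8 gave -0.14 and -0.20.

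Plasma cell-like cells gave the largest difference between the libraries. The 6 genes summed to 7940.0 CPM (7764 to 8119) in 84 cells at day 28 and to 139 CPM (92.1 to 200.4) in 26 cells at day 0. At day 28, 14 of the 84 cells held 3 or more UMIs of the neutrophil progenitor markers, and these 14 held 93.3% of the class's UMIs of the 6 genes, while 0 of 26 cells at day 0 did. The 14 cells had a median of 31068.5 UMIs each (6443 to 60557), 497 UMIs of the 6 genes and 1047 UMIs of Jchain, the antibody joining chain gene of plasma cells. The other 70 cells had medians of 6681, 6.5 and 743 UMIs. Without the 14 cells the ratio of day 28 over day 0 in the class was 6.73 (4.60 to 10.2), beside 57.3 (39.6 to 86.3) with them. With no cells left out for their doublet score, the class had 90 cells at day 28 and 28 at day 0. The direction then turned in this class for Elane, to a ratio of 0.813, and for Prss57, to 0.797. Among all the processing alternatives the ratio went down to 1.55 for Mpo, 1.90 for Prtn3, 1.59 for Ctsg and 1.10 for Ms4a3. The size of the difference in this class thus depended on the processing.

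Single barcodes of mixed content were also seen elsewhere. One erythroid-like cell at day 28 held 18.2% of the UMIs of the 6 genes in its class, at 19099 CPM. In the other direction, 1 neutrophil progenitor-like cell at day 0 held 98.3% of the Jchain UMIs of its class, and without it Jchain stood at 15.4 CPM against 875 CPM with it. A neutrophil progenitor-like cell at day 28 held 43.7% of its class's Jchain UMIs.

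**Figure D5:**
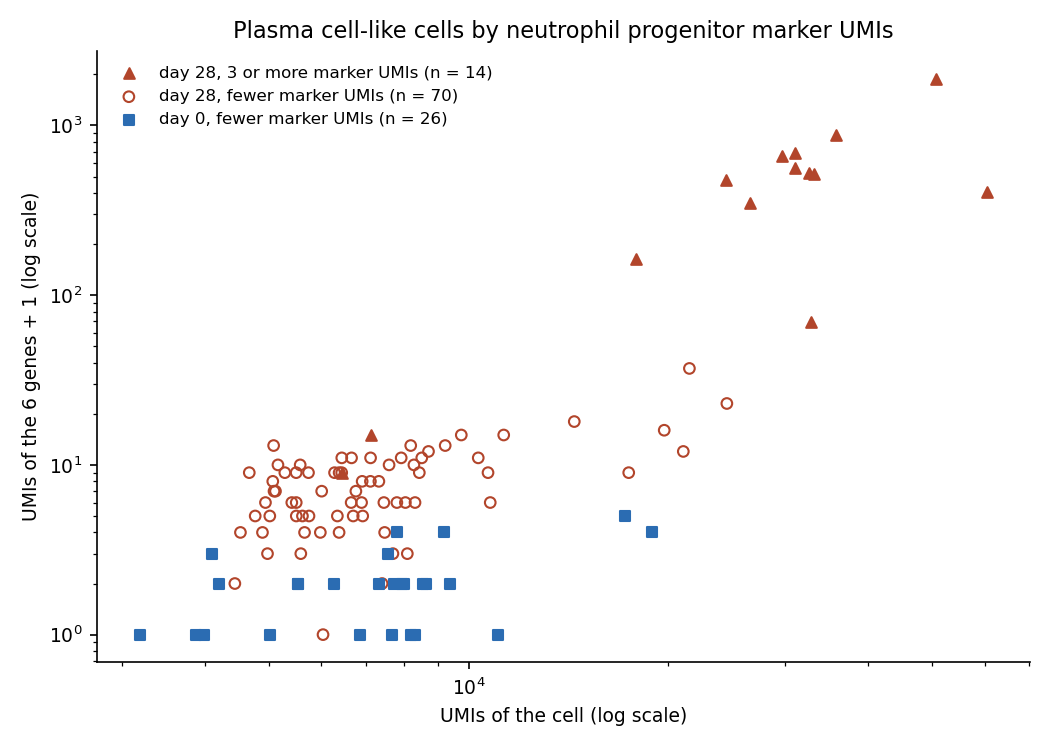
UMIs of the 6 genes plus 1 against total UMIs (both log scales) for each plasma cell-like cell, with triangles for the 14 day 28 cells that held 3 or more neutrophil progenitor marker UMIs, open circles for the other 70 day 28 cells and squares for the 26 day 0 cells. Most of the triangles lie at the top right, above 100 UMIs of the 6 genes, where no circle or square lies.

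The other genes of the granule pathway were read from lists, counting members at least 2-fold apart with a mean of at least 10 CPM. The list of granule content, storage and activation had 22 of 25 genes at that level in the day 28 over day 0 comparison of neutrophil progenitor-like cells, with 0 higher and 0 lower and a median log2 ratio of -0.05. Srgn had 2068 CPM at day 28 and 2286 CPM at day 0. Its 2 highest ratios were those of the chaperone gene Hsp90b1, 415 CPM at day 28 and 280.3 CPM at day 0, and Arsb, which encodes the sulphatase arylsulfatase B, 95.9 and 67.7 CPM on those days. The 2 lowest were Ctsc, with 19.9 CPM at day 28 and 30.3 CPM at day 0, and the mannosidase gene Man2b1, with 42.1 and 65.6 CPM. Ctsc encodes cathepsin C, which activates the granule serine proteases, and its highest level was in monocyte progenitor-like cluster 0, where it had 376 and 382 CPM on those days.

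Set against monocyte progenitor-like cells, neutrophil progenitor-like cells had 5 of 22 tested genes of that list higher at day 28 and 6 of 23 at day 0. On those days 2 and 3 were lower. All genes gave 3.81% and 4.32% higher and 6.93% and 9.85% lower, shares that also stand beside the other counts of this paragraph. The lists' genes, unlike the members, took part in the clustering, so these counts describe the clusters. Of 12 tested regulators, 4 were higher and 4 lower at day 28 and 4 and 3 at day 0, and of 9 and 11 tested later granule genes 7 were higher on each day and 1 and 3 lower. Of the inhibitors 2 of 4 were higher on each day and 2 and 1 lower, all 4 and 6 tested Ms4a neighbours were lower, and of 14 proliferation genes 0 were higher and 0 and 2 lower. Early progenitor genes gave 1 of 4 higher on each day and 1 and 0 lower, the 1 tested Ctsg neighbour (Mcpt8) was higher at day 0, and the 1 tested gene at the Mpo locus passed on neither day. Cd63, a tetraspanin of azurophil granule membranes, had 642 CPM against 51.9 CPM at day 28 and 785 against 35.5 CPM at day 0. Lyz2, a lysozyme gene, had 168 against 3777 CPM at day 28 and 238 against 8109 CPM at day 0.

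Genes for inhibitors of the proteases were read next. Of 13 listed inhibitors 4 were tested, and 0 were at least 2-fold higher and 1 lower at day 28 in neutrophil progenitor-like cells, with a median log2 ratio of -0.45. The 1 gene was Slpi, a secreted inhibitor of elastase and cathepsin G, with 159 CPM at day 28 and 380.4 CPM at day 0, a ratio of 0.419 (0.377 to 0.466). Serpinb1a, an intracellular inhibitor of elastase, cathepsin G and proteinase 3, had 329 and 499 CPM, a ratio of 0.658 (0.604 to 0.718). The cystatin genes Cst7 and Cst3 had ratios of 0.852 and 0.815.

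Among transcription regulators, 12 of 18 were tested, 0 were higher and 1 was lower at day 28, with a median log2 ratio of -0.30. The 1 gene was Irf8, a factor of monocyte and dendritic cell fate, with 32.1 CPM at day 28 and 93.7 CPM at day 0. The growth gene Myc had 22.9 and 44.7 CPM, a ratio of 0.513 (0.379 to 0.701). Myb, which drives progenitor genes, had 274 CPM at day 28 and 270.2 CPM at day 0, and Spi1, which encodes PU.1, had 305 and 318 CPM. Cebpe, needed for the switch to later granules, had 198 CPM at day 28 and 212 CPM at day 0. Their ratios of day 28 over day 0 were 1.01 for Myb (0.906 to 1.14), 0.957 for Spi1 (0.863 to 1.06) and 0.934 for Cebpe (0.822 to 1.06), and the interval held 1 for these 3.

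Later granule genes went both ways. Of 9 tested in a list of 15, 1 was higher and 1 lower at day 28 in neutrophil progenitor-like cells, with a median log2 ratio of -0.03. Camp, the cathelicidin gene, had 292 CPM at day 28 and 56.2 CPM at day 0, a ratio of 5.20 (4.14 to 6.60). Ngp, another secondary granule gene, had 65.1 and 237 CPM, a ratio of 0.274 (0.237 to 0.318). At day 0 the erythroid-like cells also held both, with 236 CPM of Camp and 215 CPM of Ngp, against 10.2 and 3.47 CPM at day 28, and their part in the result was not tested. S100a8 had 3929.9 CPM at day 28 and 4012 CPM at day 0 in neutrophil progenitor-like cells. All 14 proliferation genes were tested, with 0 higher and 0 lower and a median log2 ratio of -0.0029, and of 7 early progenitor genes 4 were tested, with 0 higher and 0 lower and a median log2 ratio of -0.12. The cyclin gene Ccna2 had 84.1 CPM at day 28 and 56.9 CPM at day 0 and the replication gene Mcm2 66.0 and 101.6 CPM, while among progenitor genes the stem cell factor receptor gene Kit had 42.3 and 28.1 CPM and Cd34 30.7 and 44.7 CPM.

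Genes beside the members on the chromosome were read in the same way. Of 16 neighbours of Elane, 10 were tested in neutrophil over monocyte progenitor-like cells at day 28, and 0 were 2-fold higher and 0 lower, with a median log2 ratio of -0.11. At day 0 the same count was 0 higher and 1 lower of 10. In the day 28 over day 0 comparison of neutrophil progenitor-like cells, 0 of 10 Elane neighbours, 0 of 1 tested Ctsg neighbours, 0 of 2 tested Ms4a genes and 0 of 1 tested genes at the Mpo locus passed 2-fold in either direction. Genes beside Ctsg and Ms4a3 included some with their highest level in other lineages. Mcpt8, beside Ctsg, had 11875 CPM at day 28 and 25394 CPM at day 0 in basophil or mast cell-like cells. Ms4a2, the high-affinity IgE receptor beta chain gene, had 632 and 873 CPM there, Ms4a1 (CD20) had 70.0 and 560.2 CPM in B lineage-like cells, and Ms4a6c had 895 and 1023 CPM in monocyte progenitor-like cluster 0.

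The genes whose profile was most like the mean of the 6 members were ranked by Pearson correlation of log2 (CPM + 10) over 22 sums, 11 groups of cells in each library. The highest were Lbp (0.945), Anxa3 (0.942), Gstm1 (0.939) and Ap3s1 (0.934), followed by Gm1604a, Rab44, 1700020L24Rik, Hk3, F630028O10Rik and Msantd3 (0.918). Anxa3 had 313 CPM at day 28 and 322 CPM at day 0 in neutrophil progenitor-like cells, against 9.25 and 2.25 CPM in the lymphoid and erythroid-like background. Gstm1 was also 1 of the markers that named those cells. Between members the same measure ran between 0.803 for Prtn3 with Prss57 and 0.978 for Mpo with Ctsg.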

How the data were processed

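The study sorted YFP-positive, CD11b-negative cells from mouse hindlimb muscle and made 1 10x library per group. The authors deposited UMI counts per gene and barcode, raw and not normalized, made with Cell Ranger 2.1.1 and STAR on mm10 per the submitters' processing notes; they count molecules, so PCR copies are collapsed. The 6 members, the marker lists and the pathway lists were chosen with earlier results of these data known.

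Barcodes with fewer than 500 genes or over 10% mitochondrial UMIs were left out (17 at day 28 and 2 at day 0). Scrublet marked 22 and 4 cells by its own threshold. The highest doublet scores were therefore left out at a share that rose with the number of deposited barcodes (56 and 57 cells). Counts were scaled to 10000 per cell, and 2000 variable genes without the members gave 30 principal components, 20 neighbours and Leiden clusters at resolution 0.8 (scanpy 1.11.5, leidenalg 0.10.2, python 3.11.15). A cluster was named from marker genes when its score was at least 1, at least 3 markers were in 10% of its cells and its top 10 genes held more markers of no other class, and these limits were set after the data had been seen. Of 22 clusters, 2 stayed unnamed.

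Levels are summed UMIs scaled to CPM with exact Poisson intervals, shares have Clopper-Pearson intervals and ratios conditional binomial intervals, all at 95% and for counting error only (scipy 1.17.1). Each group is 1 library, so there is no test and no p-value. A gene counted as tested at a mean of at least 10 CPM over both sides and as higher or lower at 2-fold. Named genes are the members, the 10 genes with the most similar profile, the 2 highest and 2 lowest ratios of a list and list genes at the lineage where they were highest. Srgn, Cd63, Lyz2, Cebpe and S100a8 were given in neutrophil progenitor-like cells after their values had been seen. The ratios and their intervals were tested on simulated data. The thinning was checked on deposited day 28 barcodes, and only for the number of UMIs kept per barcode.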

Additional observations from a re-analysis of the deposited data

Results flagged for a closer look

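Over the 9 lineages named here other than the fibroblast-like and granule-maturing neutrophil-like cells, the ratio of day 28 over day 0 lay above 1 in one lineage and below 1 in another, each beyond its counting interval, for Mpo, Elane, Ctsg, Prss57 and Ms4a3, and the difference between lineages was not tested. For Prtn3 it lay above 1 in each of the 9, though at 0.973 (0.947 to 0.999) in monocyte progenitor-like cluster 2 alone. In plasma cell-like cells the ratio was 24.4 for Mpo (13.6 to 49.0), 68.2 for Elane (35.9 to 149), 203 for Ctsg (36.3 to 8022), 9.57 for Prss57 (2.58 to 80.2) and 85.7 for Ms4a3 (15.3 to 3394). The day 0 side of the Ctsg and Ms4a3 values is 1 UMI each, and that of Prss57 is 2 UMIs. Among the processing alternatives these plasma cell-like ratios went down to 1.55 for Mpo, 0.813 for Elane and 1.59 for Ctsg. For Prss57 and Ms4a3 they went down to 0.797 and 1.10. In neutrophil progenitor-like cells the ratio was 0.549 for Mpo, 0.678 for Elane and 0.768 for Prss57. In basophil or mast cell-like cells it was 0.492 for Ctsg and 0.791 for Ms4a3. The plasma cell-like values moved with the 14 day 28 cells that held neutrophil progenitor markers: without them, in a setting chosen after seeing the data, the ratio was 4.23 for Mpo, 6.03 for Elane, 24.2 for Ctsg, 2.75 for Prss57 and 10.3 for Ms4a3. All 8 neutrophil progenitor markers summed to 669 CPM in plasma cell-like cells at day 28, with none at 0, and to 19.8 CPM at day 0, with 5 at 0.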

How the results depend on the processing

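With 1 library per group nothing here has a replicate check, the cell groups rest on marker genes, and counting error limits the rarer genes. No paired analysis was possible because each group has 1 library, and for the same reason no library could be left out. In neutrophil progenitor-like cells the ratio of day 28 over day 0 stayed between 0.543 and 0.555 for Mpo and between 1.13 and 1.16 for Prtn3 under 8 alternatives. Of 505 ratios between the days 399 moved by less than their interval, 101 moved further and 5 turned direction, counting only ratios whose interval leaves out 1. For the 6 ratios whose interval holds 1 (Prss57 in monocyte progenitor, early progenitor, basophil or mast and plasmacytoid dendritic cell-like cells, Ctsg in early and Ms4a3 in monocyte progenitor-like cells), 19 of 56 values lay on the other side of 1. The 5 were Elane in monocyte progenitor-like cells with each library clustered on its own (1.03), Elane and Prss57 in plasma cell-like cells with no cells left out for their doublet score (0.813 and 0.797), Ms4a3 in basophil or mast cell-like cells after thinning (1.02), and Prtn3 in monocyte progenitor-like cluster 2 alone (0.973, chosen after seeing the data); the cause was not tested.

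The summed ratio of neutrophil over monocyte progenitor-like cells stayed above 2 in both libraries. At day 28 (3.54) it was 3.51 with the members among the clustering genes, 4.26 and 5.29 at resolutions 0.4 and 1.5, 3.59 with doublets kept, 3.72 with no filter on cells, 4.11 after thinning, 4.17 as a mean over cells, and 8.07 and 2.57 over clusters 0 and 2 alone. At day 0 (4.10) it was 5.08 and 6.04 at those resolutions, 4.21 with each library clustered on its own, 4.23 with no filter, 5.96 after thinning, 5.95 as a mean over cells, and 10.5 and 2.29 over clusters 0 and 2. Clustered on its own, the day 28 library gave no cluster named neutrophil progenitor-like, so those values could not be had. The day 0 library on its own gave 116 neutrophil progenitor-like cells against 62 in the main setting. It gave 85 plasma cell-like cells against 26, and 0 early progenitor-like cells against 130. The share of neutrophil progenitor-like cells with all 6 genes was 58.8% at day 28 and 58.1% at day 0 after thinning, and 75.0% at day 0 with that library clustered on its own. The lymphoid and erythroid-like sum at day 28 (540.0 CPM) was 606 CPM with each library clustered on its own, 1183 with doublets kept, 561 with no filter, 514 after thinning, 507 as a mean over cells and 424 without cells holding precursor markers, and at day 0 (92.4 CPM) it was 252 with doublets kept.

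Over all genes, 41 were 2-fold higher and 164 lower at day 28 in neutrophil progenitor-like cells, against 9 and 34 at a 50 CPM limit and 434 and 693 after thinning. After thinning the list counts were 2 lower regulators, 2 higher later granule genes, 1 higher proliferation gene, 2 lower Elane neighbours and 1 lower Ms4a neighbour.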

Other observations

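In the granule-maturing neutrophil-like cells, 5 at day 28 and 15 at day 0, the 6 genes summed to 842 CPM at day 28 (607 to 1138, 42 UMIs) and 264 CPM at day 0 (163 to 403, 21 UMIs). In the unnamed cluster of 6 cells per library led by Fscn1, Ccl5 and Ccl22 they had 42 UMIs at day 28 and 2 at day 0.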
